A study of Brachypodium distachyon with 45 samples.

Results

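Leaves of well-watered KOZ1 plants were compared between T2, 8 days into the experiment, and T0, day 0, to follow how expression moved with time where no water was withheld. KOZ1 is an inbred line of the grass Brachypodium distachyon that the study selected as drought susceptible, next to ABR4 (intermediate) and ABR8 (tolerant). The loci described are all those at 1 FPKM or more in the KOZ1 T2 control, the KOZ1 T0 control or both, which held for 17815 of the 33852 loci in the deposited table. FPKM is a fragment number scaled to transcript length and to the mapped fragments of a library, so that levels can be compared between genes of different length.

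The series has 45 leaf RNA libraries in 15 groups of 3. Each value used here is a deposited FPKM estimate for the libraries of a group together. The T2 control plants were KOZ1 plants kept watered for 8 days, the T1 control plants were watered for 4 days, and the T0 plants were taken at day 0, 32 days after germination. The ABR4 and ABR8 control groups had the same days and watering. Drought groups had water withheld from day 0. No replicate spread can be given from pooled values, so the error of each FPKM is the authors' 95% confidence interval, printed in brackets as limits, and whether 1 library carries a change was not tested. Per the study's methods, each library came from its own plant.

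Some labels limit the comparison. The 3 KOZ1 T0 samples are titled control, but their treatment entry states that they were not watered. For the ABR8 samples at T1 and T2 the treatment entry is the reverse of the title, and titles were followed for all groups. All 3 T2 control libraries carry lane 4 in their run names and all 3 T0 libraries carry lane 3, so that day and sequencing lane cannot be told apart. The T1 control had 1 library of lane 3 and 2 of lane 4. The ABR8 controls also changed lane, with lane 3 at T2 and lane 2 at T0, whereas the ABR4 controls had lane 1 at T2 and T0, with 1 T2 library of no stated lane. The time of day of sampling is not given in the sources used here. In bulk leaf RNA, fewer cells of a type and less RNA per cell cannot be told apart.

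Grass leaves lengthen while their cell walls are loosened and rebuilt, and the walls are later cross-linked and fixed as the tissue matures. The walls of grasses contain cellulose, arabinoxylan, xyloglucan, pectin and mixed-linkage glucan, and enzymes that trim, re-join or de-esterify these polymers act outside the cell. Class III peroxidases and laccases oxidise phenolics in the wall and take part in lignin formation, and a cuticle of wax and cutin seals the leaf surface.

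Over 8 days with water, 513 of the 17815 loci changed in KOZ1 leaves, 159 of them higher and 354 lower at T2 than at T0. A locus was called when a two-sided z-test on the log FPKM, with the standard error taken from the authors' upper limit, gave a Benjamini-Hochberg adjusted p of at most 0.05 over the 26568 loci tested in the table and the values differed at least 2-fold. These calls were 2.88% of the loci in both directions, 0.893% for higher and 1.99% for lower. The falls were larger than the rises: 168 of the 354 loci that fell did so at least 8-fold, against 26 of the 159 that rose. The median locus that fell was at 1.81 FPKM at T2 and 13.7 FPKM at T0, while the median locus that rose was at 36.7 FPKM at T2 and 9.58 FPKM at T0. The summed FPKM of all loci was 750890 at T2 and 661189 at T0, and with both scaled to the same sum, which moved every log2 change by -0.18, the calls were 106 higher and 486 lower. Without scaling, the median log2 change of the 17815 loci was 0.03. Testing the difference in FPKM in place of the log ratio called 298 loci, and limits that do not overlap were found for 929.

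**Figure D1:**
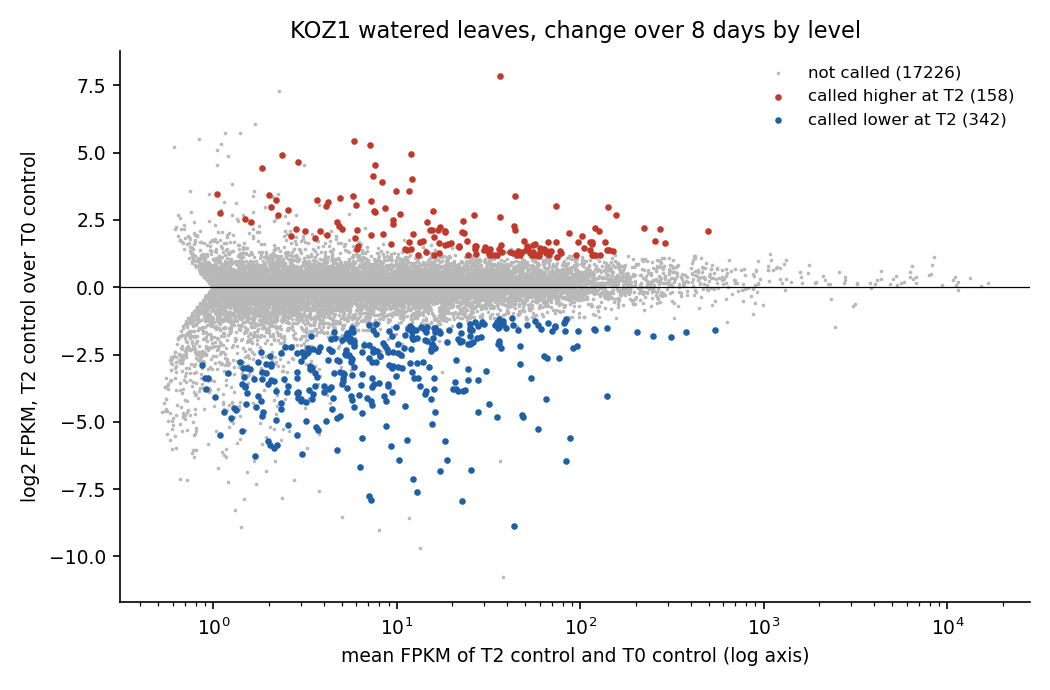
Each point is a KOZ1 locus above 0 FPKM in both groups, with the mean FPKM of the T2 and T0 controls on a log axis and the log2 ratio of T2 over T0 on the vertical axis. Loci called lower at T2 (342) reach further from 0 than loci called higher (158), and the loci above 1000 FPKM lie in grey close to 0. The 12 loci listed at 0 at T2 and the 1 listed at 0 at T0 have no ratio and are not drawn.

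Among loci at 1 FPKM or more in both groups, the largest falls took abundant transcripts to a few FPKM. Bradi5g04630 (chromosome 5, 5852396 to 5853456 in the v3.0 assembly) was at 1.89 FPKM (0.13 to 3.64) at T2, against 165 FPKM (107 to 223) at T0, a log2 change of -6.45 ± 0.73 (SE). Bradi3g37670 (chromosome 3, 39947402 to 39948394) was at 3.53 FPKM (1.08 to 5.98) at T2 and 171 FPKM (108 to 234) at T0, a log2 change of -5.60 ± 0.58. Its neighbour Bradi3g37680 kept a high level, at 135 FPKM at T2 and 487 FPKM at T0, and was also called lower. The limits of T2 and T0 did not overlap for any of these 3 loci. No gene function is given for them in the sources used here, so they are named by identifier only.

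The other 8 of the 10 largest falls had log2 changes between -5.26 and -4.17. Bradi5g23770 was at 2.99 FPKM (0.316 to 5.67) at T2 and 115 FPKM (70.3 to 160) at T0. Bradi1g38120 was at 3.35 FPKM at T2 and 93.7 FPKM at T0, Bradi1g23895 at 3.48 and 92.4 FPKM, and Bradi2g46120 at 2.38 and 67.5 FPKM. Bradi1g24410, Bradi1g15930, Bradi3g50406 and Bradi3g49380 were between 1.24 and 2.99 FPKM at T2 and between 29.2 and 60.7 FPKM at T0. All 10 loci were at 0.916 to 6.62 FPKM in the T1 control, close to their T2 level.

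Some loci fell further, to under 1 FPKM at T2. Bradi1g21870 (chromosome 1, 17587330 to 17588274) was at 0.186 FPKM (0 to 0.611) at T2 and 86.5 FPKM (51.6 to 121) at T0. A group of 4 loci lies within chromosome 3 from 20005499 to 20042737. Bradi3g20970 was at 0.13 FPKM at T2 and 25.6 FPKM at T0, Bradi3g20980 at 0.436 and 37.1 FPKM, and Bradi3g21030 at 0.186 and 45.3 FPKM, and all 3 were called lower. Bradi3g21000 between them was at 0.0271 FPKM at T2 and 9.99955 FPKM at T0 and was not called. The z-test on the log scale has little reach at such levels, since the error of a value near 0 is large against the value itself.

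Bradi2g08880 shows the same limit at a higher level. It was at 0.0433 FPKM (0 to 0.267) at T2 and 76.0 FPKM (46.2 to 106) at T0, with limits far apart. It was not called on the log scale and was called when the difference in FPKM was tested. In all, 205 loci were at least 8-fold lower and 21 at least 8-fold higher at T2 without being called. The test on the difference called 12 of these 226, and the 95% limits did not overlap for 131. Most had low levels, and 10 of the 226 had a mean of 5 FPKM or more.

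Another 12 loci were listed at 0 at T2 and called lower, with the test made on the FPKM difference. Bradi3g55270 (chromosome 3, 55294376 to 55296172) was listed at 0 at T2 and was at 31.0 FPKM (18.5 to 43.6) at T0. Bradi2g06300 and Bradi1g63370 were listed at 0 at T2 and were at 16.8 and 11.5 FPKM at T0. The authors give limits of 0 for a value of 0, so the error of these differences comes from T0 alone, and no fold is given. The 1 locus listed at 0 at T0 and called higher, Bradi3g16650, was at 10.4 FPKM (4.95 to 15.9) at T2 and 9.01 FPKM at T1. It was listed at 0 in the ABR4 and ABR8 controls of T2 and T0 as well.

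The largest rise among all called loci above 0 in both groups was that of Bradi2g60970 (chromosome 2, 57986640 to 57990310), at 72.6 FPKM (37.7 to 108) at T2 and 0.314 FPKM (0 to 0.772) at T0, a log2 change of 7.85 ± 1.13. Its T1 control value was higher than that at T2, at 125 FPKM (64.7 to 184), and T2 against T1 was not called. Among loci at 1 FPKM or more in both groups, Bradi1g13060 (chromosome 1, 9881772 to 9882744) rose most, to 22.7 FPKM (8.2 to 37.3) at T2, against 1.40 FPKM (0.159 to 2.63) at T0. The other 9 of the 10 largest rises had log2 changes between 2.98 and 3.92. Bradi3g16515 was the most abundant of them, at 251 FPKM (143 to 360) at T2 and 31.9 FPKM (20.2 to 43.5) at T0. Bradi1g37600 was at 131 FPKM at T2 and 16.2 FPKM at T0, and Bradi2g57680 at 80.4 and 7.72 FPKM. For all 10 of these loci the limits at T2 lay above those at T0. When the difference in FPKM was tested in place of the log ratio, Bradi1g13060, Bradi1g25517 and Bradi5g19240 were no longer called.

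None of the most abundant transcripts was called. The 10 most abundant loci had mean values of 8094 FPKM or more over T2 and T0, and 0 of them were called. Bradi2g16290, the highest, was at 17710 FPKM (9692 to 25729) at T2 and 15766 FPKM (6576 to 24955) at T0. Bradi4g24367 differed most among the 10, at 11631 FPKM (6405 to 16856) at T2 and 5362 FPKM (2560 to 8164) at T0, with limits that overlapped. Of the 100 most abundant loci, 80 had a higher value at T2, with a median log2 change of 0.26, and 0 were called. These 100 loci held 48.5% of the summed FPKM at T2 and 45.9% at T0.

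Calls in the 2 directions lay at different levels. Among loci with a mean of 1 to 5 FPKM, 0.399% were called higher and 1.88% lower. Among loci with a mean of 100 FPKM or more, 3.13% (23 loci) were called higher and 1.22% (9 loci) lower. Bradi4g25750, at 268 FPKM (160 to 377) at T2 and 814 FPKM (510 to 1118) at T0, was the most abundant locus that fell, and Bradi5g11147, at 799 FPKM (244 to 1354) at T2 and 188 FPKM (114 to 263) at T0, the most abundant that rose. The limits of Bradi5g11147 overlap, as they do for no other of the 513 called loci, and its span overlaps another locus.

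Most of the fall was present by day 4. The comparison of T1 with T0 called 323 of 17923 loci (1.80%), 96 (0.536%) higher and 227 (1.27%) lower at T1, and the comparison of T2 with T1 called 23 of 17206 loci (0.134%), 9 (0.0523%) higher and 14 (0.0814%) lower at T2. At an unadjusted p under 0.05 these numbers were 1112 and 264, and with equal sums the second comparison called 44 loci. The 3 comparisons share groups and are not independent of each other. With 2 libraries of lane 4 and 1 of lane 3 at T1, day and lane cannot be told apart in these counts either. Of the 341 loci that fell between T0 and T2 and had values above 0 on all 3 days, 278 (81.5%) were nearer at T1 to their T2 level than to their T0 level on the log2 scale. Their median log2 change was -2.18 for T1 over T0 and -0.52 for T2 over T1. The loci that rose moved more evenly, with a median of 1.03 for T1 over T0 and 0.69 for T2 over T1 over 158 loci.

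**Figure D2:**
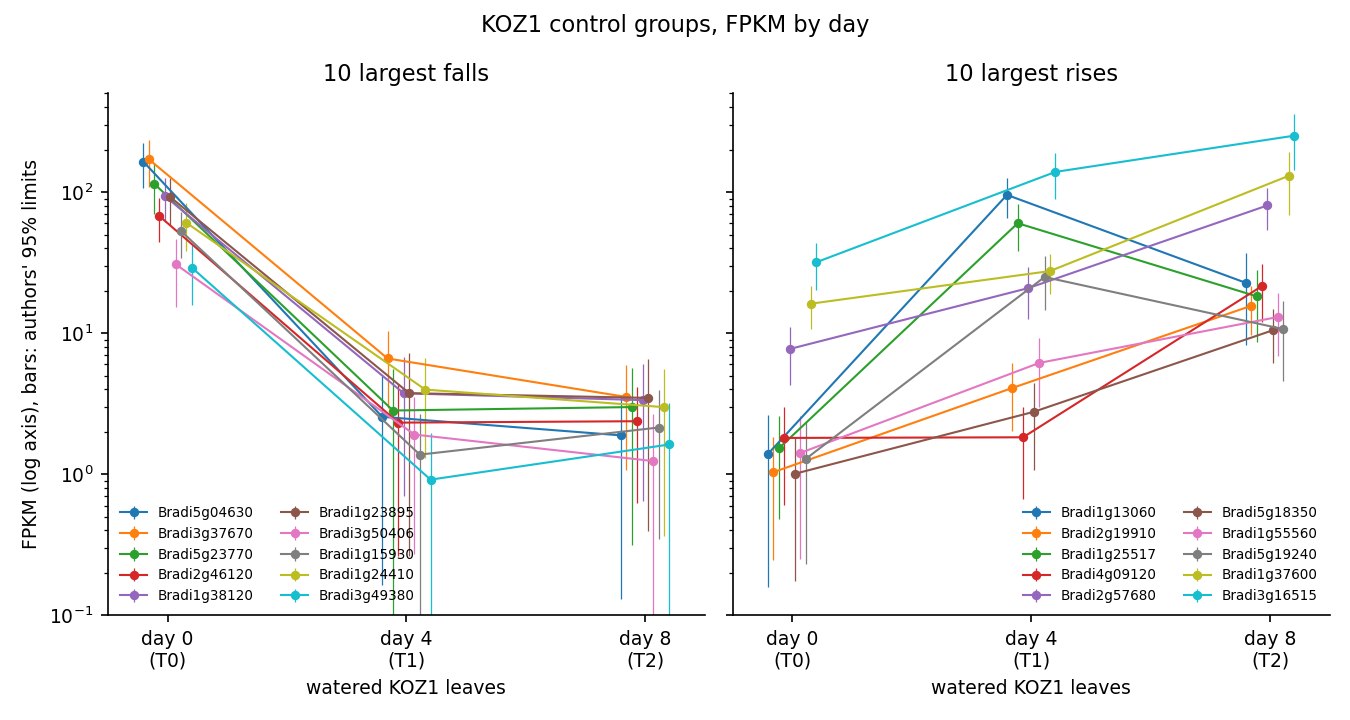
FPKM of the 10 largest falls (left) and the 10 largest rises (right) in the KOZ1 control groups at days 0, 4 and 8, on a log axis, with bars for the authors' 95% limits, and bars that reach the lower edge go on to 0 or below 0.1 FPKM. The loci that fell are at 0.916 to 6.62 FPKM by day 4, while among those that rose 3, such as Bradi1g13060, stand highest at day 4 and the other 7 at day 8.

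Among the rises, 3 of the 10 loci were higher at T1 than at T2. Bradi1g13060 was at 1.40 FPKM at day 0, 95.5 FPKM at day 4 and 22.7 FPKM at day 8. Bradi1g25517 was at 1.52, 60.2 and 18.3 FPKM and Bradi5g19240 at 1.28, 25.0 and 10.7 FPKM on the same days. Bradi4g09120 had its rise in the second step, with 1.81 FPKM at day 0, 1.83 FPKM at day 4 and 21.6 FPKM at day 8. Bradi5g04080, annotated by the study with ribulose-bisphosphate carboxylase activity, the enzyme that fixes carbon dioxide, was at 140 FPKM (84.6 to 195), 85.3 FPKM (52.9 to 118) and 438 FPKM (274 to 603), and was called higher at T2 against both T0 and T1. The call against T0 was lost when the difference in FPKM was tested.

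The calls between T1 and T2 were few and mixed. Bradi1g37600, Bradi2g57680 and Bradi2g19910 were among the 9 loci higher at T2 than at T1. Among the 14 that were lower, Bradi1g09410 was at 12.5 FPKM at T2 and 81.2 FPKM at T1, after 6.01 FPKM at T0, and Bradi2g31800 was at 6.90 FPKM at T2 and 27.9 FPKM at T1, after 123 FPKM at T0. Bradi4g16630, also lower, spans the same interval as Bradi4g16635, so that reads may be split between the 2 loci. Bradi1g09410 thus stood highest at T1, while Bradi2g31800 was lower on each later day.

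Functions are known here for the 144 genes that the study annotated in its text and tables and for 65 genes with a symbol in the RefSeq gene table. The study chose its genes for a drought response or for a difference between genotypes in these same libraries, in part against the same T2 control values, so their direction over time is not independent evidence. Of the 127 study genes at 1 FPKM or more in either group, 4 rose and 39 fell, with a median log2 change of -0.99, against 0.03 over all 17815 loci. Calls made up 33.9% of these study genes and 2.88% of all loci, and the shares within single lists below are to be set beside both. Of the 39 RefSeq genes at 1 FPKM or more in either group, 0 rose and 0 fell, and their median was 0.05. In so short a list, 0 calls lie near the share over all loci. Sorted into 5 lists of cell wall enzymes, 57 study genes had 1 rise and 24 falls (43.9% called), with a median of -1.38.

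**Figure D3:**
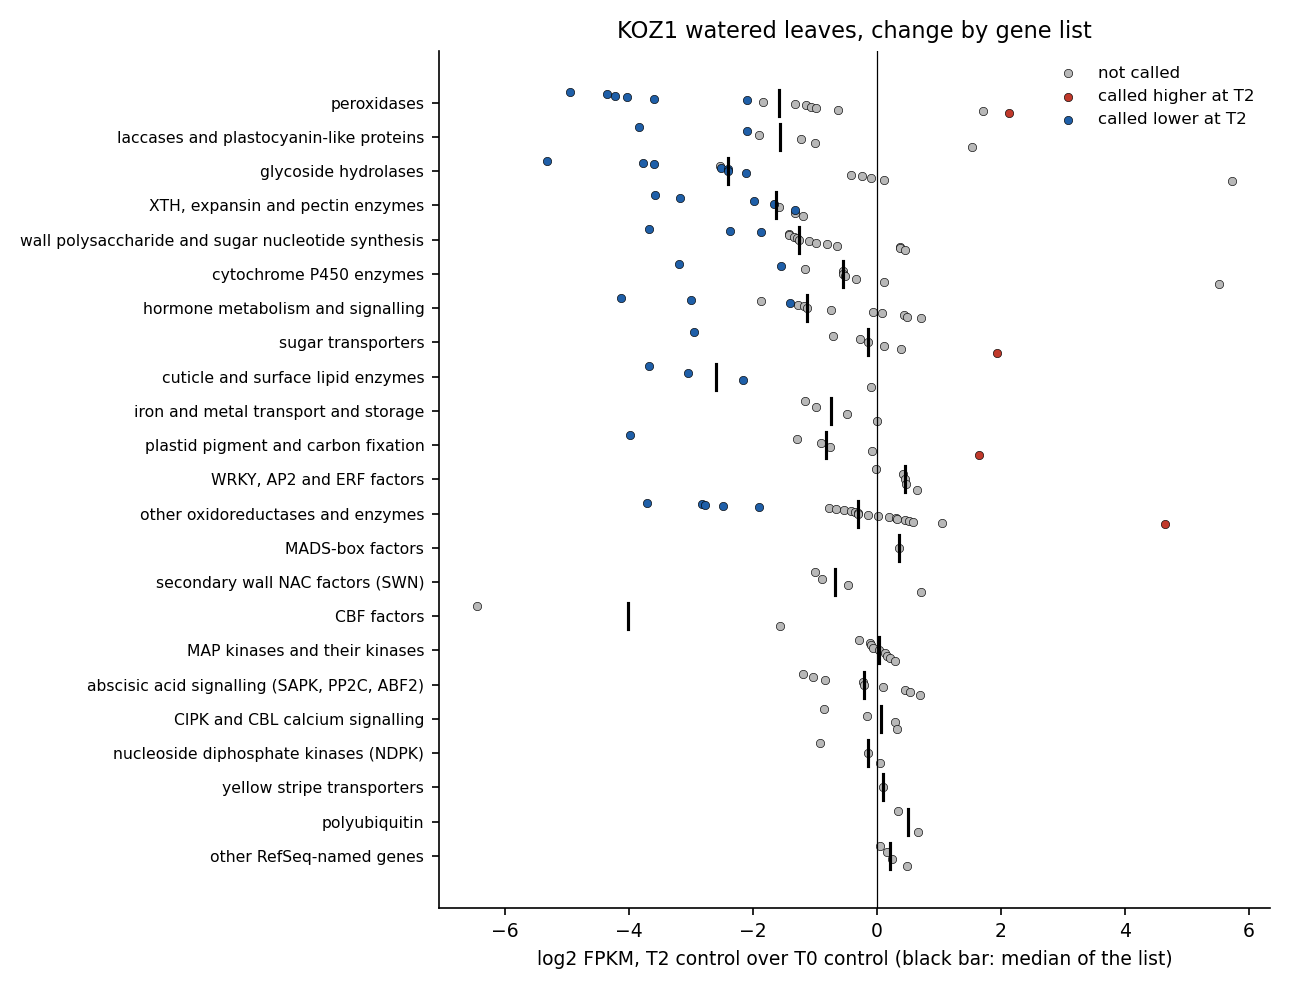
Each point is a gene, placed by its log2 FPKM ratio of T2 over T0 in KOZ1 controls, with a row for each gene list and a black bar for the list's median. The 5 cell wall lists at the top and the cuticle list hold most of the blue points, which mark genes called lower, and the lists named by RefSeq in the lower rows hold grey points only.

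Falls outnumbered rises among the peroxidases. Of 14 peroxidase genes, 6 fell, 1 rose and 7 were not called, and the median log2 change was -1.58. The share called was 50%, against 33.9% of all study genes and 2.88% of all loci. Bradi2g37000 was the most abundant that fell, at 9.49 FPKM (5.23 to 13.7) at T2 and 40.5 FPKM (26.6 to 54.3) at T0. Bradi1g59550 was at 0.199 FPKM (0 to 0.511) at T2 and 6.15 FPKM (2.96 to 9.34) at T0, a log2 change of -4.95 ± 1.22. Bradi4g22660, Bradi4g05980, Bradi2g13190 and Bradi2g20850 were at 0.304 to 1.16 FPKM at T2 and 5.66 to 13.9 FPKM at T0. Bradi1g17840 rose instead, to 25.3 FPKM (16.2 to 34.4) at T2, against 5.80 FPKM (3.14 to 8.45) at T0. Its neighbour Bradi1g17850 had 6.64 FPKM at T2 and 2.03 FPKM at T0 and was not called. Peroxidases are a large family, and reads that fit more than 1 copy may have been divided among them.

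Laccases and plastocyanin-like copper proteins gave 3 falls and 0 rises among 7 genes (42.9% called). The laccase Bradi2g23350 (chromosome 2, 20929502 to 20931900) was listed at 0 at T2 and was at 9.65 FPKM (5.82 to 13.5) at T0. It had 0.12 FPKM at T1. The plastocyanin-like Bradi1g01610 was at 1.88 FPKM (0.133 to 3.63) at T2 and 26.9 FPKM (15.9 to 38.0) at T0, and Bradi1g45710 was at 5.86 FPKM at T2 and 25.0 FPKM at T0. The laccases Bradi2g54690 and Bradi1g66720 were not called and pointed in opposite directions, with log2 changes of -1.22 and 1.54.

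Glycoside hydrolases, which cut sugar chains, had 7 falls and 0 rises among 13 genes (53.8% called). Their median was the lowest of the wall lists, at -2.39. The β-xylosidase Bradi4g20197 was at 13.3 FPKM (8.27 to 18.4) at T2 and 57.7 FPKM (38.8 to 76.6) at T0, and the β-xylosidase Bradi5g23470 was at 1.36 FPKM (0.465 to 2.26) at T2 and 16.5 FPKM (10.7 to 22.2) at T0. The xylanase-like Bradi1g12710 was at 0.0695 FPKM at T2 and 2.79 FPKM at T0. For pectin, the polygalacturonase Bradi2g18030 was at 2.75 FPKM (1.16 to 4.34) at T2 and 37.7 FPKM (25.2 to 50.2) at T0, a log2 change of -3.78 ± 0.49. The licheninase Bradi2g60497, which acts on mixed-linkage glucan, the family 35 enzyme Bradi1g37450 and the β-glucosidase Bradi5g15527 also fell, with log2 changes of -2.52, -2.39 and -2.39.

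The list of XTH enzymes, expansins and pectin enzymes had 5 falls and 0 rises among 8 genes (62.5% called). All 8 had log2 changes below 0. Xyloglucan endotransglucosylase/hydrolases (XTH) cut and re-join the xyloglucan that ties cellulose together. The XTH Bradi3g18590 was at 46.7 FPKM (30.4 to 62.9) at T2 and 117 FPKM (75.6 to 158) at T0. The XTH genes Bradi1g33840 and Bradi3g52307 were at 1.23 and 0.91 FPKM at T2 and at 14.7 and 8.19 FPKM at T0. The pectin methylesterase Bradi2g11860 and the pectin acetylesterase Bradi1g20270, which remove methyl and acetyl groups from pectin, had log2 changes of -1.97 ± 0.52 and -1.66 ± 0.42. The expansins Bradi2g53580 and Bradi2g22290, which loosen walls, were at 8.80 and 7.27 FPKM at T2 and at 21.9 and 16.6 FPKM at T0 and did not pass the test.

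Genes for the synthesis of wall polymers and their sugar precursors had 3 falls and 0 rises among 15 (20% called). CslF6 (Bradi3g16307, chromosome 3, 14492167 to 14498631), the main synthase of mixed-linkage glucan in grasses, was at 12.4 FPKM (7.87 to 16.8) at T2, 12.3 FPKM (7.23 to 17.3) at T1 and 45.0 FPKM (29.96 to 60.1) at T0, a log2 change of -1.86 ± 0.36 between T2 and T0. A UDP-glucose 6-dehydrogenase, which makes the precursor of pectin and xylan sugars, fell in 1 copy, Bradi1g10650, at 0.373 FPKM at T2 and 4.76 FPKM at T0. The far more abundant copy Bradi1g08120, at 32.1 FPKM at T2 and 68.7 FPKM at T0, was not called. Bradi2g45320, a trichome birefringence-like protein of a family that acetylates wall polymers, was at 2.53 FPKM (0.983 to 4.07) at T2 and 13.1 FPKM (7.95 to 18.2) at T0. The other 12 genes had log2 changes between -1.42 and 0.46.

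Cuticle and surface lipid enzymes gave 3 falls among 4 genes (75% called). The fatty acyl-CoA reductase Bradi4g38460, of an enzyme class that makes wax alcohols, was at 2.60 FPKM (1.16 to 4.04) at T2 and 11.6 FPKM (7.28 to 15.9) at T0. Bradi1g75730, annotated as an alkane 1-monooxygenase or omega-hydroxylase, was at 1.95 FPKM (0.764 to 3.14) at T2 and 24.9 FPKM (16.5 to 33.3) at T0. Its neighbour Bradi1g75740, annotated as an alkane hydroxylase, was at 9.13 FPKM at T2 and 9.73 FPKM at T0. The oxidoreductase Bradi3g35310 fell with a log2 change of -3.04.

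Among 13 genes of hormone metabolism and signalling, 3 fell and 0 rose (23.1% called). Bradi5g00810, a 12-oxophytodienoic acid reductase of the jasmonate pathway, was at 32.3 FPKM (21.4 to 43.1) at T2 and 85.0 FPKM (57.5 to 113) at T0. The auxin-responsive SAUR gene Bradi1g51490 was at 0.743 FPKM at T2 and 13.0 FPKM at T0, and the auxin response factor Bradi2g46190, a transcription factor, at 0.763 and 6.12 FPKM. Of 9 cytochrome P450 genes (22.2% called), Bradi3g08160 and Bradi1g32810 fell, with log2 changes of -1.54 and -3.18. Neither of these, nor Bradi2g46190, was called when the difference in FPKM was tested. The sugar transporters had 1 fall and 1 rise among 7 genes (28.6% called). The fall was that of Bradi5g12070 (1.34 FPKM at T2 and 10.4 FPKM at T0). The rise was that of Bradi3g46650 (6.61 FPKM at T2 and 1.73 FPKM at T0). That rise was lost with equal sums and with the test of the difference.

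In the plastid list of 6 genes (33.3% called), the rise of Bradi5g04080 was joined by 1 fall, of the chlorophyllase Bradi2g00810. Chlorophyllase is an enzyme that removes the phytol tail of chlorophyll. Bradi2g00810 was at 0.417 FPKM at T2 and 6.59 FPKM at T0. None of the 5 WRKY, AP2 and ERF transcription factors and none of the 4 genes of iron and metal handling was called. The ferritin-like locus that joins Bradi4g44870 and Bradi4g44880 was at 588 FPKM at T2 and 1167 FPKM at T0. Among 22 other enzymes, 5 fell and 1 rose (27.3% called). The rise was that of the DnaJ chaperone Bradi2g19010, at 5.56 FPKM (2.67 to 8.45) at T2 and 0.222 FPKM (0 to 0.624) at T0, with 17.8 FPKM at T1, and it was no longer called with equal sums. The polyamine oxidase Bradi5g25740 was among the falls, at 0.62 FPKM at T2 and 8.11 FPKM at T0.

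The genes named by RefSeq gave 0 calls among 39, which for so short a list lies near the 2.88% called over all loci. Regulators of secondary walls (SWN, of the NAC family) were represented by 4 genes, of which SWN5 was at 17.6 FPKM at T2 and 10.7 FPKM at T0 and SWN7 at 2.72 and 4.99 FPKM, and neither was called. The 9 MAP kinases and their kinases had log2 changes between -0.29 and 0.30, and MPK6 was at 31.9 FPKM at T2 and 28.5 FPKM at T0. The 9 genes of abscisic acid signalling, the hormone of water shortage, had changes between -1.20 and 0.69. PP2C30, a phosphatase of that pathway, was at 1.83 FPKM at T2 and 4.19 FPKM at T0 in the watered leaves. CBF4, of a family of cold and stress factors, was at 0.0374 FPKM at T2 and 3.28 FPKM at T0. It was not called on the log scale, which has little reach near 0, and was called when the difference in FPKM was tested. Polyubiquitin UBQ4 was at 761 FPKM at T2 and 482 FPKM at T0 and UBQ10 at 573 and 451 FPKM.

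The tissue label could be checked only in part. Of 6 MADS-box genes matched to a locus, the floral genes MADS2, MADS4 and SEP3 were listed at 0 at T2 and at T0, AP1 was at 0.0602 FPKM at T2 and 0.0769 FPKM at T0 and AGL6 was listed at 0 at T2 and was at 0.0244 FPKM at T0. AGL11, of the same family, went the other way, at 31.4 FPKM at T2 and 24.5 FPKM at T0. The symbols of all 6 were matched by position only, so this list does not settle the tissue. Defining markers of mesophyll, epidermis and vascular tissue could not be assigned, because the annotation used here carries no gene descriptions beyond the genes above.

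The same 8 days were then compared in the other genotypes, whose samples are not shared with KOZ1. In ABR4, 325 of 17109 loci were called (1.90%), 159 higher and 166 lower at T2, and in ABR8 657 of 17928 (3.66%), 244 higher and 413 lower. Of the 354 loci that fell in KOZ1, 209 (59.0%) also fell in ABR8, where 2.30% of loci fell, and 90 (25.4%) fell in ABR4, where 0.970% of loci fell. These were 50.6% of the loci that fell in ABR8 and 54.2% of those that fell in ABR4. Of the 159 loci that rose in KOZ1, 84 (52.8%) rose in ABR4, where 0.929% of loci rose, and 78 (49.1%) in ABR8, where 1.36% rose. A change in the opposite direction was called for 0 of the 513 loci in ABR4 and for 1 in ABR8. Across all 3 genotypes, 61 of the 354 loci fell and 65 of the 159 rose. KOZ1 and ABR8 changed lane between T0 and T2 and ABR4 did not where its lane is known, so that genotype and lane change cannot be told apart in these shares.

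**Figure D4:**
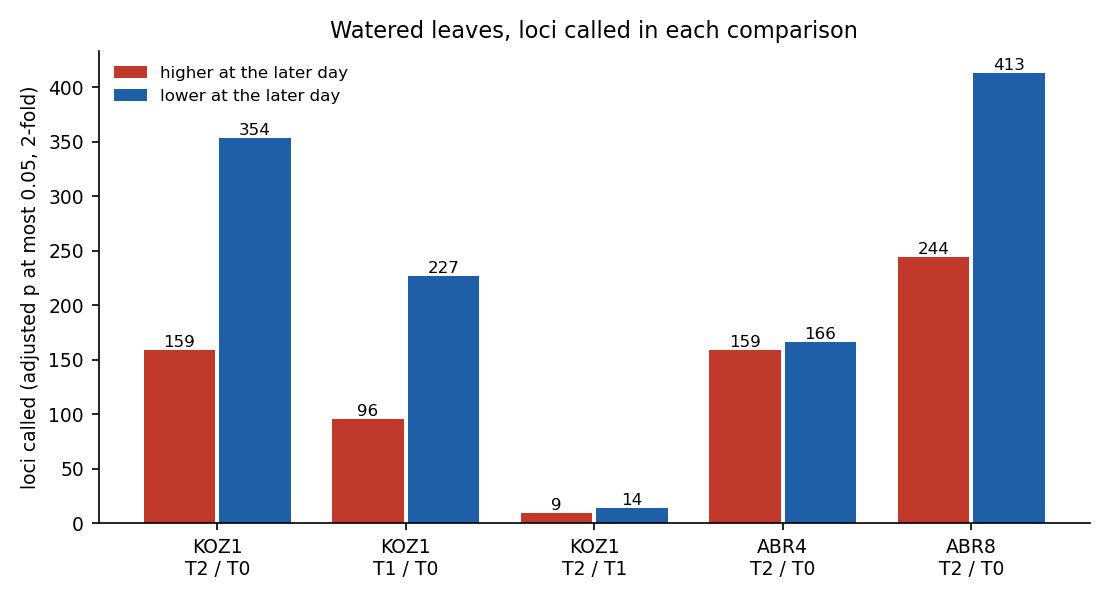
Bars give the number of loci called higher (red) and lower (blue) at the later day in each comparison of watered leaves, with the number above each bar. KOZ1 has 354 falls against 159 rises over 8 days and 227 against 96 over the first 4, while ABR4 has 166 falls and 159 rises.

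The loci that fell in KOZ1 had a lower median in ABR4 at day 0. They were chosen for KOZ1 values higher at T0 than at T2, so their KOZ1 medians are not independent of that choice. Their median FPKM was 13.7, 2.62 and 1.81 at days 0, 4 and 8 in KOZ1, 5.55, 3.57 and 3.21 in ABR4 and 14.1, 8.22 and 3.48 in ABR8. Their median log2 change over 8 days was -0.27 in ABR4 and -2.09 in ABR8. Bradi5g04630, with 1.89 FPKM at T2 and 165 FPKM at T0 in KOZ1, had 27.7 FPKM at T2 and 15.6 FPKM at T0 in ABR4 and 24.1 and 272 FPKM in ABR8. The loci that rose had medians of 9.58, 28.0 and 36.7 FPKM at days 0, 4 and 8 in KOZ1, 12.4, 22.7 and 30.6 FPKM in ABR4 and 12.9, 17.3 and 32.8 FPKM in ABR8. In the KOZ1 drought groups the loci that fell had a median of 6.18 FPKM at T1 and 2.03 FPKM at T2. The loci that rose had 20.1 FPKM at T1 drought and 19.6 FPKM at T2 drought. In both sets the T1 drought median thus lay between those of T0 and the T1 control. Whether time alone moved the watered leaves was not tested.

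The changes themselves were then set against each other with a z-test. By this test 76 of 17424 loci (0.436%) changed differently in KOZ1 than in ABR4, 71 (0.407%) with a lower and 5 (0.0287%) with a higher change in KOZ1. The same lane layout underlies this comparison. Of the 71 loci, 4 were under 1 FPKM in ABR4 at both T2 and T0. Bradi5g04630 was among the 71, with a difference of -7.27 ± 0.87 on the log2 scale, as was Bradi3g37670, with -5.56 ± 0.81. The study chose its wall genes in part for a difference between genotypes in these same libraries, so their share here is not independent evidence. Of the 56 wall genes above 0 in all 4 groups, 11 changed differently, all with the lower change in KOZ1. These were the peroxidases Bradi4g22660, Bradi2g13190 and Bradi2g37000, the plastocyanin-like Bradi1g01610, the β-xylosidases Bradi4g20197 and Bradi5g23470, the xylanase-like Bradi1g12710, the polygalacturonase Bradi2g18030, the pectin methylesterase Bradi2g11860, the pectin acetylesterase Bradi1g20270 and CslF6. The median log2 change of the 57 wall genes was -1.38 in KOZ1, 0.26 in ABR4 and -1.04 in ABR8.

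**Figure D5:**
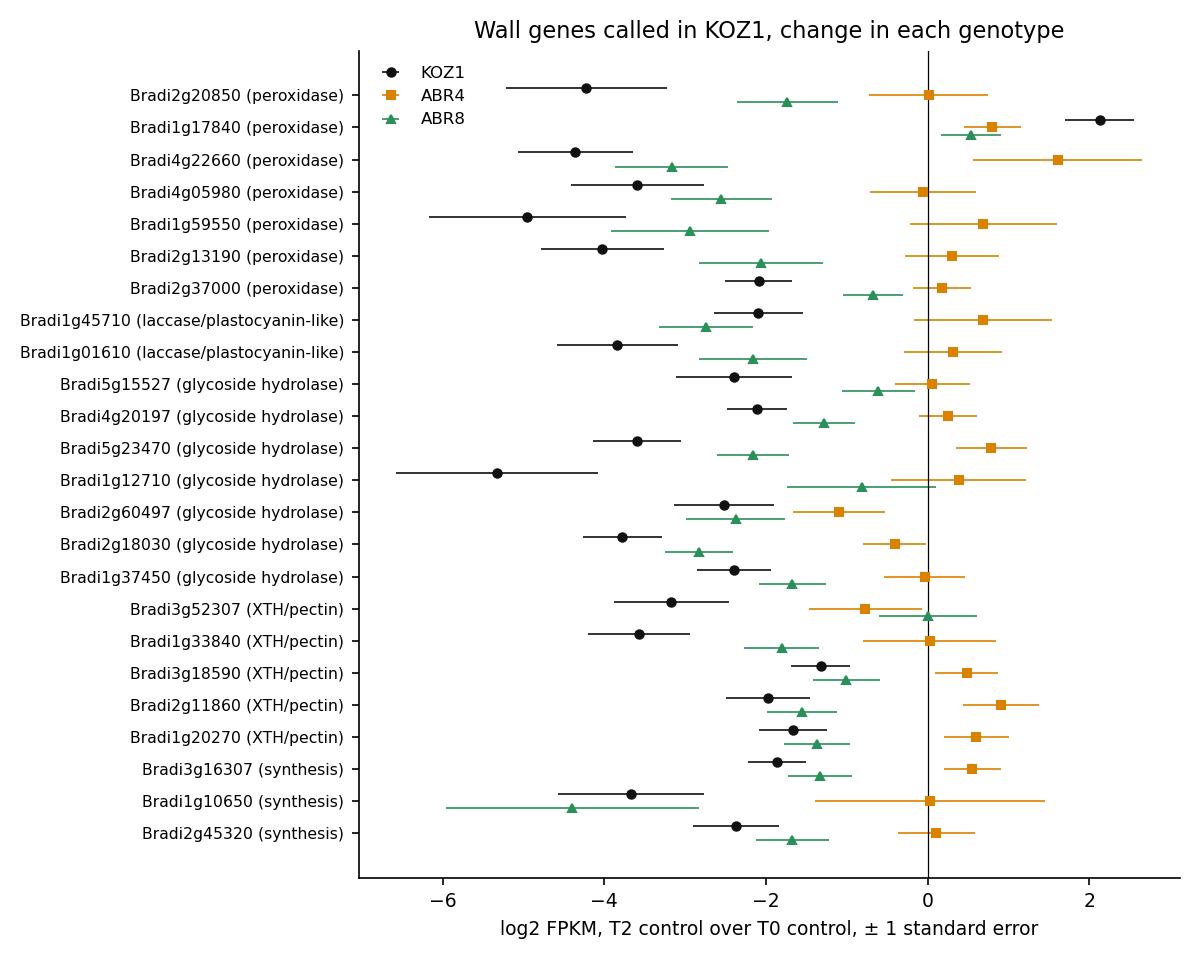
For the 24 cell wall genes called in KOZ1 and above 0 in both groups, markers give the log2 ratio of T2 over T0 in KOZ1 (black), ABR4 (orange) and ABR8 (green), with bars of 1 standard error. The ABR4 markers scatter around 0 while most KOZ1 and ABR8 markers lie below it, and Bradi1g17840 is the gene with KOZ1 above 0.

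CslF6 illustrates the size of the difference. It was at 12.4 FPKM at T2 and 45.0 FPKM at T0 in KOZ1, against 29.5 and 20.2 FPKM in ABR4, a difference of the log2 changes of -2.42 ± 0.51. In ABR8 it was at 28.6 FPKM at T2 and 72.1 FPKM at T0, and the difference of KOZ1 from ABR8 was not called. The iron transporter Bradi4g29720 was at 37.7 FPKM at T2 and 37.6 FPKM at T0 in KOZ1, and was called as different because it had 24.5 FPKM at T2 and 2.66 FPKM at T0 in ABR4.

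The 5 loci with a higher change in KOZ1 than in ABR4 were Bradi4g09120, Bradi1g37297, Bradi5g04080, Bradi3g29722 and Bradi3g35700. Bradi5g04080, annotated by the study with ribulose-bisphosphate carboxylase activity, was at 438 FPKM at T2 and 140 FPKM at T0 in KOZ1. In ABR4 it was at 136 and 284 FPKM, a difference of the log2 changes of 2.71 ± 0.61. Bradi4g09120 was at 21.6 FPKM at T2 and 1.81 FPKM at T0 in KOZ1 and at 4.32 and 4.05 FPKM in ABR4. In ABR8, Bradi4g09120 was at 37.4 FPKM at T2 and 6.05 FPKM at T0.

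Against ABR8, 17 of 17325 loci (0.0981%) changed differently, 9 (0.0519%) with a lower and 8 (0.0462%) with a higher change in KOZ1. The expansin Bradi2g22290 was at 7.27 FPKM at T2 and 16.6 FPKM at T0 in KOZ1, against 172 and 58.8 FPKM in ABR8, a difference of -2.73 ± 0.58. The locus that joins Bradi1g72590, a jasmonate ZIM domain repressor of jasmonate signalling, and Bradi1g72595 was at 2.11 FPKM at T2 and 5.09 FPKM at T0 in KOZ1, against 38.0 and 6.24 FPKM in ABR8. Bradi2g60970, the largest rise in KOZ1, was among the 8 with a higher change, as it was at 64.6 FPKM at T2 and 13.3 FPKM at T0 in ABR8. The treatment entry of the ABR8 T2 samples goes against their titles, so these differences rest on the titles.

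The called loci were spread over the genome. The share called lower lay between 1.48% on chromosome 4 and 2.53% on chromosome 5, and the share called higher between 0.692% on chromosome 3 and 1.09% on chromosome 5. Of the 354 loci that fell, 33 stood next to another that fell, in 16 runs of neighbours of which the longest, Bradi5g25720, Bradi5g25730 and Bradi5g25740, had 3 loci. Of the 159 that rose, 4 stood next to another that rose. How many neighbours the shares called lower (1.99%) and higher (0.893%) would give was not tested, so no clustering is read from these counts. The spans of 43 of the 513 called loci overlap another locus, as do those of 4079 of all 17815 loci. Reads there may have been counted for either locus, as no strand-specific count is stated in the sources used here.

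The 1 FPKM limit lies in a dense range of levels. The larger of the T2 and T0 values was between 1 and 1.1 FPKM in 310 loci just inside it and between 0.9 and 1 FPKM in 317 loci just outside. The 2 loci nearest to the limit had 1.00054 and 0.998171 FPKM. All loci called in the whole table were inside it. Of the 17815 loci, 16106 were at 1 FPKM or more in both groups, 514 at T2 alone and 1195 at T0 alone.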

How the data were processed

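Per the study's methods and the submitters' processing notes, the authors used Trim Galore 0.4.1 for trimming, TopHat2 2.1.1 on Bowtie2 2.2.9 for mapping to version 3.0 of the genome (gene models of version 3.1), and Cufflinks 2.2.1 with Cuffdiff for FPKM. The deposited FPKM values and 95% limits are pooled by the authors over 3 libraries a group. Counts and depth per library were not used here, so precision rests on the limits alone, which carry the authors' model of the spread.

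In Python 3.11.15 (numpy 2.4.6, pandas 2.3.3, scipy 1.17.1) the standard error was the distance to the upper limit divided by 1.96. Two-sided z-tests were made on log FPKM, or on the FPKM difference where a group was listed at 0, and adjusted over all loci tested. They are normal approximations to the authors' limits for 3 libraries a side, so calls are given with no p-value for single loci. Changes were compared between genotypes over loci above 0 in all 4 groups. Tests were checked on simulated data. Starts were moved to counting from 1, and RefSeq symbols were matched by position at an overlap of at least 50% of both spans, which gave the study's own symbol for 119 of 134 genes and another symbol for 7. Genes named were the 10 largest rises and falls at 1 FPKM or more in both groups, up to 5 listed at 0, up to 4 called per list, the 10 most abundant and the largest differences between genotypes, among loci with 1 BRADI identifier. Loci named outside it (the neighbours of called loci, Bradi3g21000, Bradi2g08880, Bradi5g11147, Bradi4g25750, CBF4 and the other genes given as list members) were chosen after their values were seen. Loci and lists were chosen with earlier results of these data known. The planned lists, built on RefSeq descriptions, could not be applied as the gene table holds none, and lists from the study's annotation and RefSeq symbols took their place. Alternatives covered the error, the adjustment, the fold, the FPKM minimum, a pseudocount and scaling.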

Additional observations from a re-analysis of the deposited data

Results flagged for a closer look

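The change over 8 days was called as different between genotypes for some loci. Between KOZ1 and ABR4, 71 loci had a lower and 5 a higher change in KOZ1, and between KOZ1 and ABR8, 9 had a lower and 8 a higher change. KOZ1 changed lane between T0 and T2 and ABR4 did not where its lane is known, so lane and genotype cannot be told apart there. Among loci with 1 BRADI identifier, the largest lower changes against ABR4, as differences of log2 changes, were those of Bradi1g21870 (-10.44), Bradi3g21030 (-9.90), Bradi1g26470 (-9.17), Bradi3g20970 (-8.68) and Bradi3g20980 (-7.74). All 5 were under 1 FPKM at T2 in KOZ1 and at 3.99 to 86.5 FPKM at T0, and at 0.506 to 4.26 FPKM at T2 and 0.0546 to 1.09 FPKM at T0 in ABR4. These differences rest on ABR4 ratios of low values, with log2 changes of 1.58 ± 1.81 (SE) for Bradi1g21870 and 3.32 ± 1.72 for Bradi1g26470, both under 1 FPKM there at T2 and T0, and their size is uncertain. The largest higher changes were those of Bradi4g09120 (3.48), Bradi1g37297 (2.74), Bradi5g04080 (2.71), Bradi3g29722 (2.63) and Bradi3g35700 (2.07).

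Against ABR8, the loci of 1 BRADI identifier with the largest lower changes were Bradi1g33050 (-4.17), Bradi2g55310 (-3.69), Bradi3g14780 (-3.43), Bradi2g55920 (-3.35) and Bradi5g26610 (-3.20). A locus with no identifier (-4.70) and the locus that joins Bradi1g72590 and Bradi1g72595 (-3.87) also had lower changes. Of the 5 named first, Bradi3g14780 fell in KOZ1, to 2.16 FPKM at T2 against 15.9 FPKM at T0, and the other 4 were not called there. Those with the largest higher changes were Bradi2g43330 (6.01), Bradi2g60970 (5.58), Bradi2g51120 (5.36), Bradi4g30360 (4.34) and Bradi1g25517 (3.104).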

How the results depend on the processing

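The 513 loci called between T2 and T0 in KOZ1 became 1414 at the unadjusted p, 929 by limits that do not overlap, 298 by the z-test on the difference in FPKM and 328 at 4-fold or more, with more falls than rises each time. Scaled to the same sum, 592 loci were called, 460 of them shared with the 513. The other alternatives gave 349 to 548 loci. At the unadjusted p, the counts were 1112 for T1 against T0 (323 adjusted), 264 for T2 against T1 (23 adjusted), 601 for KOZ1 against ABR4 (76 adjusted) and 274 for KOZ1 against ABR8 (17 adjusted). With equal sums, T2 against T1 called 44 loci. Of 108 named loci none changed direction. The difference test lost the call of 10 (Bradi1g13060, Bradi1g25517, Bradi5g19240, Bradi5g04080, Bradi3g29722, Bradi2g43330, Bradi1g32810, Bradi3g08160, Bradi2g46190 and Bradi3g46650) and gained 1, that of CBF4, and scaling to the same sum lost 2 (Bradi3g46650 and Bradi2g19010). No paired analysis was possible because the columns are pooled over replicates, and leaving out a replicate could not be run for the same reason. Depth limits loci near 0 FPKM most, as their relative error is large.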
